A study of Rattus norvegicus with 11 samples.

Results

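Glycolysis was followed in the trigeminal ganglion through 9 listed genes, Hk1, Hk2, Gpi, Pfkm, Pfkl, Aldoa, Aldoc, Eno2 and Ldha, whose probes were found by the RefSeq accession that the array gives for each probe. Of the 9 genes, 8 had a probe, 10 probes in all among the 24684 probes of the array. No probe carried an accession of Hk1, and Hk1 was not analysed here. The genes were selected on their place in the pathway, but with their log2 differences between CFA and contralateral ganglia already known from earlier results of the same arrays, so these differences are a description. Whether a gene passed the study's threshold is stated as part of that description and is no independent test.

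The arrays held RNA from whole trigeminal ganglia (TRG) of male Wistar rats, taken 7 days after complete Freund's adjuvant (CFA, killed mycobacteria in paraffin oil) had been injected under the skin of 1 whisker pad, at 50 µl of 1 mg/ml. The CFA group was the ganglion on the injected side of rats 1, 2, 3, 5, 6 and 8 (n = 6). The contralateral group was the opposite ganglion of the injected rats 1, 2, 3, 5 and 6 (n = 5), so the control tissue came from animals that were themselves inflamed, and no uninjected rat was included. Samples of the 2 sides with the same number were taken as 1 rat, a pairing read from the numbers in the labels. Each of the 11 samples was hybridised to 1 single-colour array for mRNAs and long non-coding RNAs.

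Glycolysis splits glucose into pyruvate in the cytosol and yields ATP without oxygen. Hexokinases trap glucose in the cell as glucose 6-phosphate, phosphofructokinase is the main control point of the pathway, and lactate dehydrogenase interconverts pyruvate and lactate. Sensory neurons depend on glucose for firing and axonal transport, while the glia around them can release lactate. Several enzymes exist as tissue isoforms. Hk2 is the inducible hexokinase of muscle and fat and Hk1 the common one of the nervous system, Aldoc is the aldolase enriched in nervous tissue, and Eno2 is the neuron-specific enolase.

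The promoters of 3 of the genes are shown because they stand for the gene with the largest difference (Hk2), the neuronal isoform (Eno2) and the last enzyme of the anaerobic route (Ldha). Each line holds the 250 bases before the annotated start in RefSeq's GRCr8 assembly, 5′ to 3′ on the gene's strand, with ACGTG or its reverse complement CACGT in capitals. ACGTG is a form of the core of the hypoxia response element, and other forms were not searched. The overlapping palindrome CACGTG, an E-box, holds ACGTG on both strands.
Hk2 (chr4:116841276-116841525, minus strand): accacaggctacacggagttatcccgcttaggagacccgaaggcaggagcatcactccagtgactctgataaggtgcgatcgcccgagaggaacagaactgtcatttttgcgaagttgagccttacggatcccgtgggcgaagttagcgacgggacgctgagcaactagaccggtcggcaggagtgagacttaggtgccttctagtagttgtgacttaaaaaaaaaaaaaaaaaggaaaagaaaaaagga
Eno2 (chr4:159267221-159267470, minus strand): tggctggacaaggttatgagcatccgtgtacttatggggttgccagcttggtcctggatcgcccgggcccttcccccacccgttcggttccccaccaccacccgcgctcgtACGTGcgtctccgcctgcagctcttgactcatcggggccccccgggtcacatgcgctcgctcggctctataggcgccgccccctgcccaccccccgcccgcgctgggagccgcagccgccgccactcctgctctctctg
Ldha (chr1:106507842-106508091, plus strand): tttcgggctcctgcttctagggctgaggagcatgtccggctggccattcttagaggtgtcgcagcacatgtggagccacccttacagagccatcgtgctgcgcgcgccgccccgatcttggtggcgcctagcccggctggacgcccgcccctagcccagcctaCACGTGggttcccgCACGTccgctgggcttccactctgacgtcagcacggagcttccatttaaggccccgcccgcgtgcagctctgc

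The Hk2 promoter held no match to the 5 letters, the Eno2 promoter held 1 and the Ldha promoter 3, of which a pair overlapped in 1 CACGTG. All 9 genes, Hk1 included, had a RefSeq promoter, 12 promoters in all. Of these 12 promoters 6 held ACGTG on either strand, and they belonged to 6 genes. Of 33469 promoters of the same length in the table, 16.6% held it. G and C made up 49.6% of the Hk2 promoter, 69.6% of that of Eno2 and 66.4% of that of Ldha, and the median of all promoters was 51.2%. These matches describe the letters in the window and say nothing of which factor binds there.

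Between 68.9% and 82.8% of spots per array were well above background, and no spot was saturated. The ganglion's own markers were present: 11 of 11 measured sensory neuron markers and 7 of 7 Schwann cell markers were well above background on all arrays, as were 4 of 5 markers of satellite glia. Genes of anterior pituitary, which lies next to the ganglion, varied most between arrays of the 12 marker lists, with a mean log2 level of 8 genes from 5.60 to 12.0 in the CFA group and from 5.68 to 11.28 in the contralateral group. The arrays lay on 5 slides, taken here as arrays that share a scan time. Slide 1 held contralateral rat 3, slide 2 held CFA rat 1 with contralateral rats 5 and 6, slide 3 held contralateral rats 1 and 2, slide 4 held CFA rats 2 and 3, and slide 5 held CFA rats 5, 6 and 8. Slide 2 alone held both groups, so on the other slides group and slide cannot be told apart. No rat had both its ganglia on the same slide, so every difference within a rat is also a difference between slides.

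Among the 8 measured genes, Hk2 had the largest difference, a fitted 3.62-fold higher signal in the CFA group, in which 2 of the 5 contralateral spots were not well above background. This size depended on the background correction: the log2 difference was 1.86 with the scanner software's subtraction, 0.63 without correction and 0.37 with normexp. The normexp setting added an offset of 50 to each signal, which draws dim values together on the log2 scale. The other 7 genes, well above background on all arrays, differed by less than 0.5 on the log2 scale in their brightest probes. So did 86.5% of all probes, and a further probe of Ldha differed by 0.57. The threshold used by the study, a limma p of 0.05 or less with a fold change over 2, was passed by Hk2 alone, 1 of 8 genes (12.5%). Over all probes, 2.02% passed it, 1.15% as higher in CFA (285 probes) and 0.863% as lower (213). After Benjamini-Hochberg adjustment in limma 0 probes passed 0.05, with a smallest adjusted p of 0.0677, while without adjustment 2659 probes (10.8%) reached a p of 0.05. Because the genes were chosen with this contrast known, nothing is read from the share of 12.5%. The groups overlapped in each of the 8 genes, and 1.20% of all probes had groups that did not overlap. The median log2 difference of the 8 genes was 0.02, against -0.04 over all probes. In whole ganglia, fewer cells of a type and less RNA per cell cannot be told apart.

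**Figure D1:**
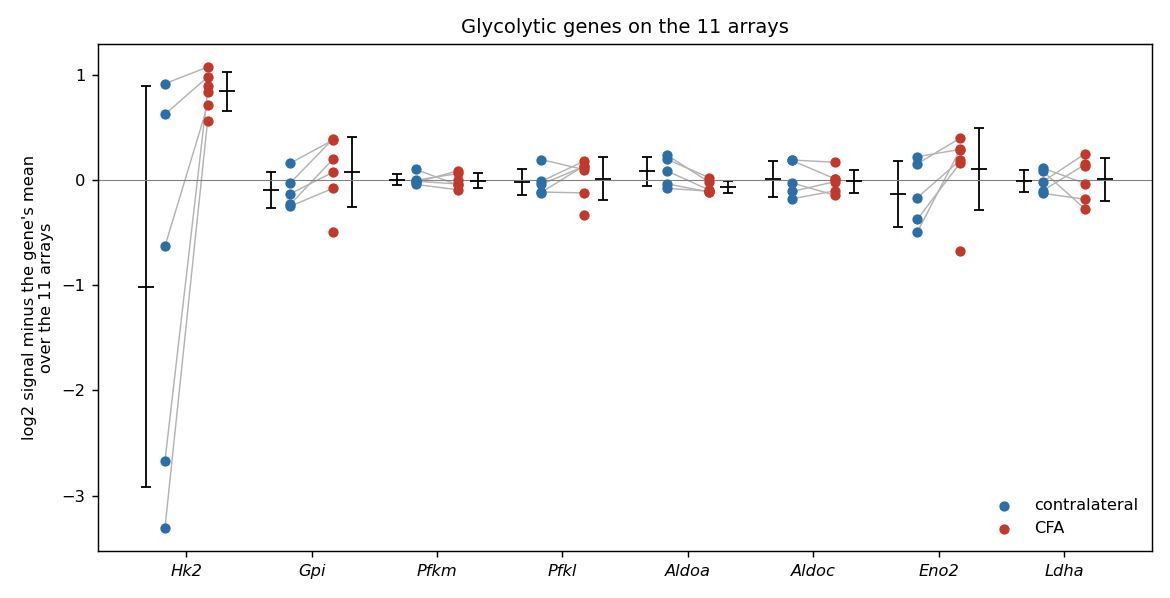
Log2 signal of the 8 measured glycolytic genes on the 11 arrays, each gene centred on its own mean, with contralateral arrays in blue, CFA arrays in red, grey lines joining the ganglia of 1 rat, and black bars giving the group mean ± SD. The contralateral arrays of Hk2 spread over 4.22 log2 units and its CFA arrays over 0.51, and the brightest probes of the other genes stayed within 1.07 over all arrays.

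Hk2, a hexokinase that binds the outer mitochondrial membrane and answers to insulin and hypoxia, was measured by 1 spot (RefSeq NM_012735.1). Its normalised log2 signal on the contralateral arrays was 1.99 in rat 1, 1.35 in rat 2, 4.03 in rat 3, 5.58 in rat 5 and 5.29 in rat 6. On the CFA arrays it was 5.50 in rat 1, 5.22 in rat 2, 5.37 in rat 3, 5.73 in rat 5, 5.64 in rat 6 and 5.55 in rat 8. The CFA arrays lay close together, and contralateral rats 5 and 6 lay among them, so that the low values were those of contralateral rats 1, 2 and 3. The group means were 5.50 ± 0.18 (SD, n = 6) and 3.65 ± 1.91 (SD, n = 5), a log2 difference of 1.86 (SE 0.71).

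Within rats, Hk2 was higher on the CFA side in 5 of 5, by 3.51 on the log2 scale in rat 1, 3.87 in rat 2, 1.34 in rat 3, 0.16 in rat 5 and 0.35 in rat 6. The sides of each of these rats lay on different slides. The sizes in rats 1 and 2 are not resolved, since the spot was not well above background on their contralateral arrays, where its log2 values of 1.99 and 1.35 lay below the lowest probe that was (2.31 and 2.15). On slide 2, the one slide with both groups, CFA rat 1 exceeded the mean of contralateral rats 5 and 6 by 0.07. With slide as a block in the model the difference was the same 0.07 (SE 0.27), below the threshold. That block compares the groups through slide 2 alone, so it is no second result.

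Hk2 lay near the floor of the scanner. The median pixel signal of its spot was 36 in contralateral rat 1 and 32 in contralateral rat 2, over local backgrounds of 21 and 20, and in neither of these was it well above background. In contralateral rat 3 it was 39 over a background of 17. On the other 8 arrays the spot read 67 to 104 over backgrounds of 22 to 27. The spot thus cleared background in 6 of 6 CFA and 3 of 5 contralateral samples. After the scanner software's background subtraction, its signal was 4.68 and 2.24 in contralateral rats 1 and 2, 16.6 in contralateral rat 3, and 28.1 to 63.1 elsewhere.

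**Figure D2:**
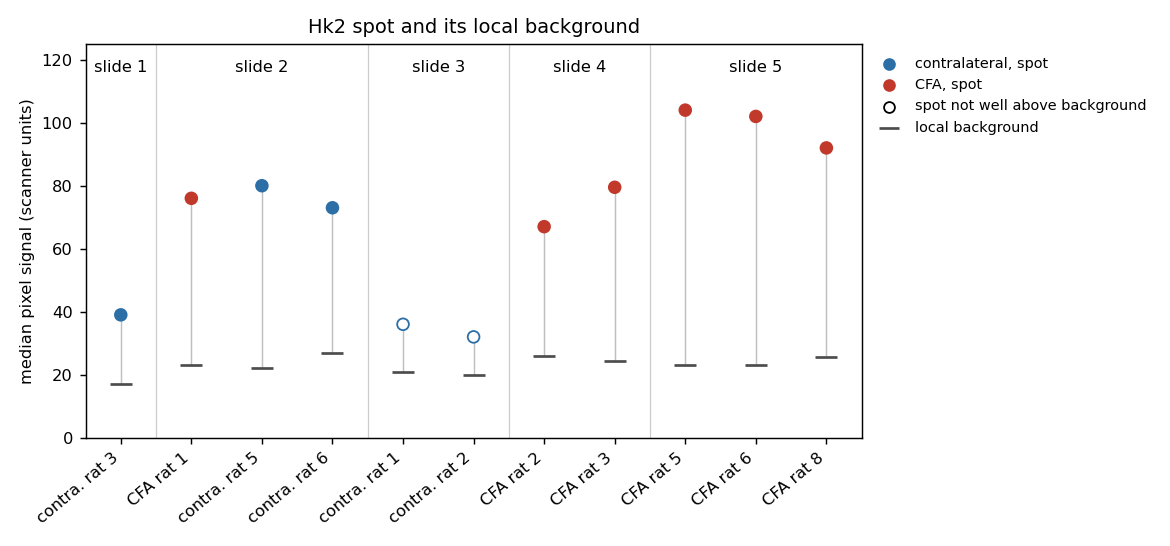
Median pixel signal of the Hk2 spot (circles, scanner units) and of its local background (dashes) on each array in order of slide, in blue for contralateral and red for CFA arrays, with open circles where the spot was not well above background. The 3 lowest spots, at 32 to 39, were contralateral rats 1, 2 and 3, and contralateral rats 5 and 6, at 80 and 73, lay within the range of the CFA arrays.

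The difference of Hk2 kept its sign in all 26 other fits and passed the threshold in 18 of them. Without background correction it was 0.63 and with normexp background correction 0.37, both below the threshold. Leaving out contralateral rat 1 gave 1.44 and leaving out contralateral rat 2 gave 1.28, and neither passed the threshold. Leaving out slide 3, which holds these 2 arrays, gave 0.54 (SE 0.30), also below it.

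The share of probes past the threshold varied with the row of the array. The Hk2 spot lies in row 108 of 532. In the upper 6 of 20 blocks of rows (rows 1 to 159), 2.99% to 6.57% of the probes with 1 spot passed the threshold as higher in CFA and at most 0.12% as lower. In the lowest 5 blocks (rows 400 to 532), 2.74% to 4.34% passed as lower and at most 0.42% as higher. Among the 206 probes in the dimmest tertile that shared the block of Hk2 (rows 107 to 133), the median deviation from a probe's own mean was -0.25 and -0.41 on contralateral rats 1 and 2, -0.21 on contralateral rat 3, 0.38 and 0.33 on contralateral rats 5 and 6, and from -0.17 to 0.24 on the CFA arrays. The dim probes around Hk2 were lowest on the same 3 contralateral arrays as Hk2, by a smaller amount. For the 1912 dim probes of rows 160 to 399 the same median was 0.30 and 0.33 on contralateral rats 1 and 2. After the median of each block of rows was removed on each array, the log2 difference of Hk2 was 1.81 and still passed the threshold. That median was taken over spots of every brightness, so it cannot remove a shift of the dim probes alone. In the block of Hk2 the brightest tertile deviated by 0.08 and 0.07 on contralateral rats 1 and 2, opposite in sign to the dimmest. Among all probes in the decile of mean signal that holds Hk2, 5.79% passed the threshold, and in the brightest decile 0%.

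**Figure D3:**
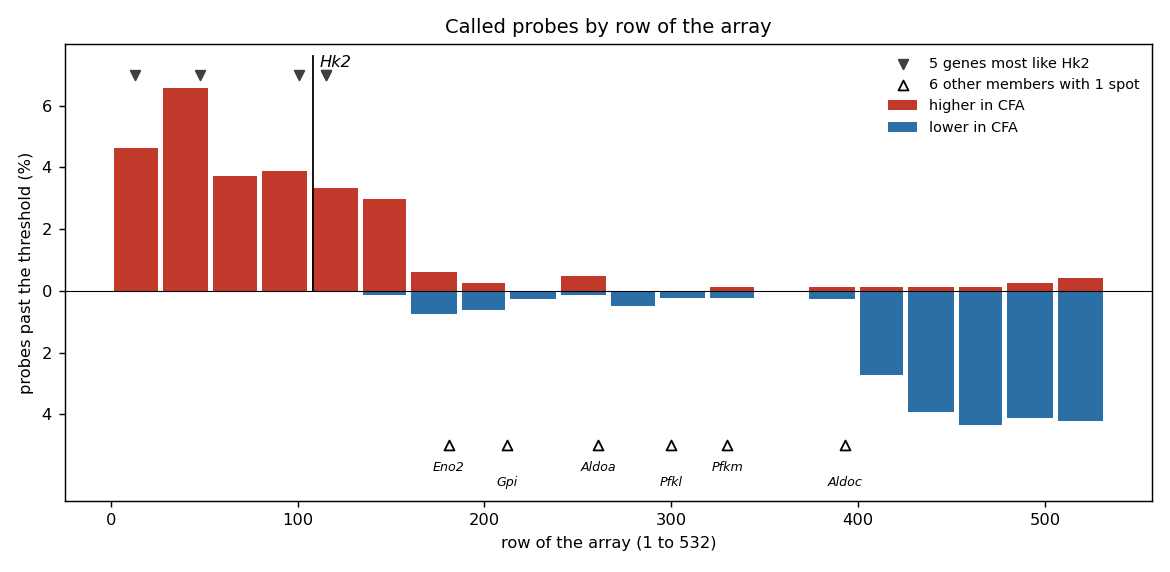
Share of probes with 1 spot that passed the threshold in each of 20 blocks of rows of the array, higher in CFA upwards in red and lower in CFA downwards in blue. The line marks Hk2 in row 108, filled triangles the 5 genes most like it (of which a pair share row 115), and open triangles the other 6 genes with 1 spot, which lie in rows 181 to 393, where few probes were called.

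The 5 genes whose centred log2 values over the 11 arrays were most like those of Hk2 were Ccr7, a chemokine receptor of lymphocytes and dendritic cells, Or6k14, an odorant receptor, Gzmf, a granzyme, C4h12orf71, and Tns4, a tensin. Their root mean square difference from Hk2 ran from 0.20 for Ccr7 to 0.28 for Tns4, where the median of 14279 named probes was 1.55. All 5 had 1 spot, as had 16245 of the 24684 probes, and lay in rows 13 to 115. Their pattern over the arrays follows from their choice by likeness to Hk2 and is no separate result. Each was lowest on contralateral rats 1 and 2, with Ccr7 at 2.23 and 1.80 there, 4.93 in contralateral rat 3 and between 5.96 and 6.51 on the other 8 arrays. Within slide 2 their differences were from -0.01 for Tns4 to 0.46 for Gzmf, and 4 of the 5 were well above background on 3 of 5 contralateral arrays, as Hk2 was.

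Gpi, the isomerase that turns glucose 6-phosphate into fructose 6-phosphate, was 13.65, 14.06, 13.87, 13.67 and 13.77 in contralateral rats 1, 2, 3, 5 and 6. On the CFA arrays it ran from 13.40 to 14.29 with a median of 14.04. CFA rat 8 gave the lowest of all 11 values and CFA rats 2 and 3 the highest. The means were 13.98 ± 0.33 (SD, n = 6) and 13.80 ± 0.17 (SD, n = 5), a log2 difference of 0.17 (SE 0.16), with the CFA side higher in 5 of 5 rats by 0.17 to 0.43.

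Pfkm and Pfkl encode the muscle and liver types of phosphofructokinase, both of which occur in nervous tissue. Pfkm was the steadiest of the 8 genes. It was 16.44, 16.56, 16.42, 16.45 and 16.46 in contralateral rats 1, 2, 3, 5 and 6 and ran from 16.37 to 16.55 in the CFA group, with a log2 difference of -0.01 (SE 0.07). Pfkl was 10.46, 10.54, 10.78, 10.57 and 10.47 in the same contralateral rats and from 10.25 to 10.76 in the CFA group, with a difference of 0.03 (SE 0.11). The lowest Pfkl value was again that of CFA rat 8, and neither gene had its CFA side higher in more than 3 of 5 rats.

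Aldoa and Aldoc, the muscle and brain types of aldolase, split fructose 1,6-bisphosphate. Aldoa was 17.58, 17.62, 17.47, 17.35 and 17.30 in contralateral rats 1, 2, 3, 5 and 6 and from 17.27 to 17.40 in the CFA group. Its log2 difference was -0.15 (SE 0.08), and the CFA side was lower in 5 of 5 rats, by a difference of -0.03 to -0.26. Within slide 2 the Aldoa difference was 0.08, of the opposite sign. Aldoc was 16.60, 16.59, 16.38, 16.30 and 16.23 in the contralateral rats and from 16.27 to 16.58 in the CFA group, with a difference of -0.02 (SE 0.10). It was 0.31 higher within slide 2. In both genes the highest contralateral arrays were rats 1 and 2, the arrays that were lowest for Hk2.

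Eno2, the neuronal enolase and a marker of neurons, was 13.05, 13.58, 12.93, 13.65 and 13.26 in contralateral rats 1, 2, 3, 5 and 6. On the CFA arrays it was 13.59, 13.82, 13.71, 13.72, 13.61 and 12.76 in rats 1, 2, 3, 5, 6 and 8. The CFA arrays of rats 1, 2, 3, 5 and 6 lay together, among or above the highest contralateral arrays, and CFA rat 8 lay below all the others. The log2 difference was 0.24 (SE 0.21), and 0.40 without the array of rat 8, which has no contralateral partner. The CFA side was higher in 5 of 5 rats, by 0.07 to 0.78, and within slide 2 by 0.13.

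Ldha, the lactate dehydrogenase subunit that favours lactate formation, was measured by 3 probes. The one that stands for the gene, the mean of 10 spots, was 17.42, 17.39, 17.18, 17.29 and 17.20 in contralateral rats 1, 2, 3, 5 and 6 and from 17.03 to 17.56 in the CFA group. Its log2 difference was 0.02 (SE 0.11), with the CFA side higher in 2 of 5 rats. The second probe, a single spot, differed by -0.06 (SE 0.12). The third, with 10 spots, differed by 0.57 (SE 0.37) over a range of 2.12 among arrays, with values within rats from -0.45 to 2.12 and a difference of -0.86 within slide 2. The probes of Ldha thus disagreed in sign within slide 2, and none of them passed the threshold.

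**Figure D4:**
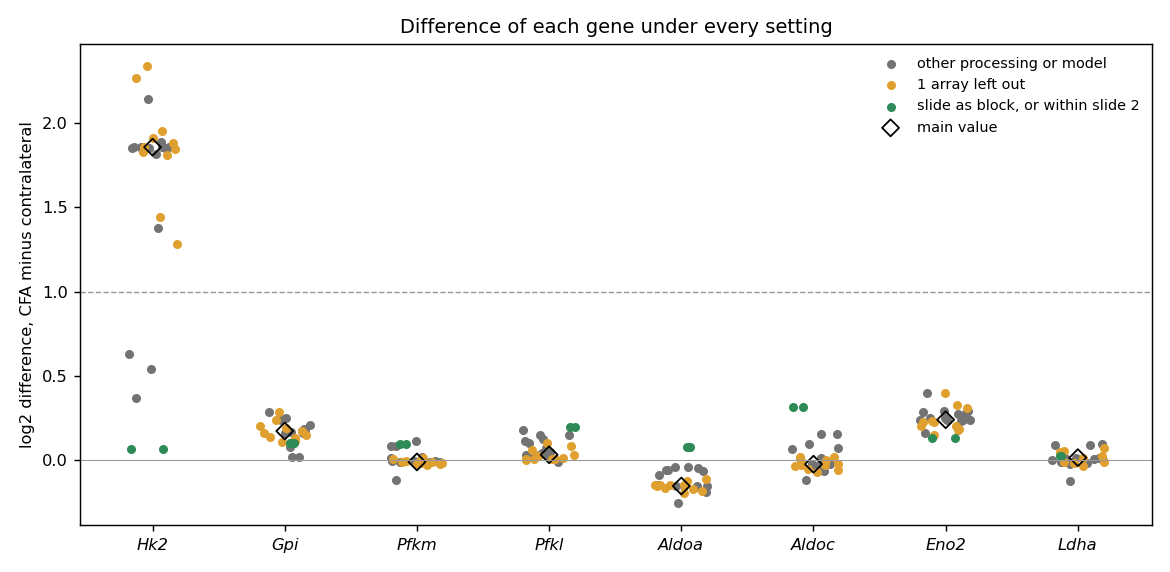
Log2 difference between CFA and contralateral arrays of each gene's brightest probe in the main fit (diamonds) and under every other setting of that probe (dots), with fits that leave out 1 array in yellow and values with slide as a block or within slide 2 in green; the dashed line marks a fold change of 2. Hk2 ranged from 0.07 to 2.34, and the brightest probes of the other 7 genes stayed between -0.25 and 0.40; the further probes of Ldha are not plotted.

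The remaining enzymes of glycolysis gave 1 gene past the threshold of 18 measured out of 21 listed, Pgk2, which was lower in CFA. Pgk2, the phosphoglycerate kinase of sperm, was 4.75, 4.91, 5.24, 4.27 and 4.16 in contralateral rats 1, 2, 3, 5 and 6 and from 2.68 to 4.59 in the CFA group. Its log2 difference was -1.03 (SE 0.37, limma adjusted p = 0.406), and its spot cleared background on 4 of 5 contralateral and 2 of 6 CFA arrays. The CFA side was lower in 5 of 5 rats. With the rat as a block the difference was -0.85 (SE 0.20) and did not pass the threshold, falling short in fold change. Within slide 2 it was 0.21, of the opposite sign. Without background correction it was -0.33 and with normexp background -0.21, both short of the threshold. It also fell short of the threshold without contralateral rat 2 (-0.97), contralateral rat 3 (-0.89), CFA rat 5 (-0.92), CFA rat 6 (-0.94) or CFA rat 8 (-0.85). The Pgk2 spot lies in row 503, in the block of rows 479 to 505. There 4.13% of the probes with 1 spot passed as lower and 0.24% as higher.

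The widely used forms of the same steps differed little. Pgk1, the somatic phosphoglycerate kinase, had a log2 difference of 0.06 (SE 0.08), and Tpi1, the triose phosphate isomerase, of -0.05 (SE 0.16). Gapdh, which oxidises glyceraldehyde 3-phosphate, differed by 0.18 (SE 0.13) and Pkm, the pyruvate kinase of most tissues, by 0.17 (SE 0.17). In both, as in Gpi and Eno2, the CFA side was higher in 5 of 5 rats, and in Pkm the array of CFA rat 8 was the lowest of all 11. Eno1, the general enolase, differed by -0.18 (SE 0.09) and Eno3, that of muscle, by -0.13 (SE 0.10). Pfkp, the platelet phosphofructokinase, differed by 0.01 (SE 0.08), Pgam1 by -0.04 (SE 0.08) and Pgam2 by 0.04 (SE 0.21), the last 2 being the general and the muscle phosphoglycerate mutase. None of these passed the threshold, and their limma adjusted p-values were 0.487 or more.

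Hk3, the hexokinase of blood cells, differed by -0.02 (SE 0.46). Isoforms of red cell and testis also had wide errors. Pklr, the pyruvate kinase of liver and red cells, differed by -0.83 (SE 0.37), Gapdhs, the sperm form, by 0.85 (SE 0.61) and Ldhc, of testis, by -0.14 (SE 0.71). Bpgm, which makes 2,3-bisphosphoglycerate in red cells, differed by -0.22 (SE 0.15), and Adpgk, an ADP-dependent glucokinase, by 0.06 (SE 0.15). Over the 18 genes the median difference was -0.05, with 7 above 0 and 11 below.

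Around glycolysis, no gene passed the threshold in the lists of its regulators (14 measured of 18), glucose and lactate transport (15 of 16), gluconeogenesis (8 of 8), glycogen (15 of 17), the pentose phosphate pathway (7 of 8), pyruvate use and the TCA cycle (25 of 27) or the response to hypoxia (12 of 13). Together with the other glycolytic enzymes these lists hold 128 genes, of which 114 were measured. Of the 114, 0 were higher and 1 was lower past the threshold (0.877%), against 2.02% of all probes. These shares were not matched for signal: over all probes 6.28% passed in the second dimmest decile and 0% in the brightest. An unadjusted limma p of 0.05 or less was found for 11 of the 114 (9.65%), against 10.8% of all probes, and none passed after adjustment. The median difference of the 114 genes was -0.04, as it was over all probes.

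Within most of these lists the gene with the smallest p was named. It was Ppargc1a, a coactivator of mitochondrial biogenesis, among the regulators, but its probe was not well above background on any array and no size is given. Slc2a5, the fructose transporter GLUT5, was the first of the transporters (-0.44, SE 0.14, limma adjusted p = 0.368), below 0 in 5 of 5 rats and -0.31 within slide 2. Pck2, the mitochondrial PEP carboxykinase, led gluconeogenesis (-0.26, SE 0.10) and Phkb, a phosphorylase kinase subunit, the glycogen genes (-0.34, SE 0.13). Idh3a, of the TCA cycle, differed by -0.15 (SE 0.09). Ankrd37, a target of hypoxia-inducible factors, differed by -0.43 (SE 0.15, limma adjusted p = 0.406). The groups did not overlap in 1 gene of the transport list, the sodium-glucose transporter Slc5a1, and in no gene of the other lists around glycolysis. Over all probes the share was 1.20%. Slc5a1 (0.85, SE 0.34, limma adjusted p = 0.435) is named here after its values were seen. Its groups met at 5.34, the value of both contralateral rat 6 and CFA rat 1. Contralateral rat 3 was lowest at 3.20, and within slide 2 the difference was 0.13.

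**Figure D5:**
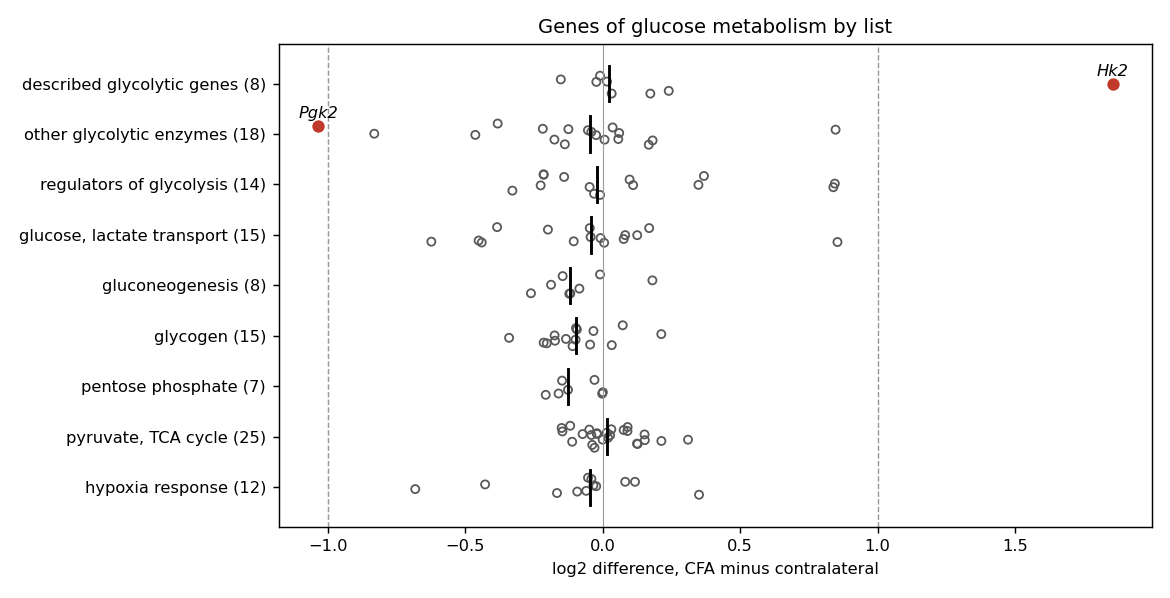
Log2 difference between CFA and contralateral arrays of each measured gene in 9 lists of glucose metabolism (number of genes in brackets), with filled points past the threshold, dashed lines at a fold change of 2 and black bars at the median of each list. Hk2 and Pgk2 are the 2 points past the threshold, 2 of the regulators (Ppargc1a and Pdk4, the rightmost of their list) were not well above background on any array, and the medians of the lists lie between -0.13 and 0.02.

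Markers of the cell types in and around the ganglion were set beside these values. The mean level of 7 Schwann cell markers ran from 15.89 to 16.34 in the CFA group and from 15.70 to 16.05 in the contralateral group. The mean level of the 11 sensory neuron markers ran from 14.36 to 14.64 in the CFA group and from 14.33 to 14.62 in the contralateral group, and that of 10 skeletal muscle markers, a tissue rich in Hk2, from 6.39 to 7.08 and from 6.84 to 7.12. The ranges of the 2 groups overlapped in these lists. Of the 7 Schwann cell markers, 1 (14.3%) passed the threshold as higher in CFA, with a log2 difference of 1.16. Over all probes 1.15% passed as higher, and this marker did not pass after adjustment. Of the 10 muscle markers 2 had a log2 difference above 0 and 8 below, with a median of -0.22, and the smallest p was that of Mb, myoglobin (0.56, SE 0.22), 1 of the 2. The gene with the smallest p was Calca (0.26) for sensory neurons, Alas2 (-0.44) for red blood cells, Mmp8 (0.63) for neutrophils, Csf1r (-0.23) for macrophages, Cd8a (-0.46) for T cells, Lhb (0.80) for anterior pituitary, Pdgfra (-0.14) for fibroblasts, Cldn5 (-0.27) for endothelial cells and Aqp4 (0.35) for central glia, each a log2 difference that did not pass the threshold. For satellite glia it was Kcnj10, which did not pass either and was well above background on 2 of 5 contralateral and 0 of 6 CFA arrays, so no size is given. A named gene does not give the direction of its list. Genes above and below 0 numbered 7 and 4 for sensory neurons, 1 and 5 for red blood cells, and 3 and 2 for neutrophils. They numbered 3 and 5 for macrophages, 2 and 5 for T cells, and 4 and 4 for anterior pituitary. For Schwann cells, fibroblasts, endothelial cells and central glia they numbered 4 and 3, 2 and 3, 1 and 2, and 4 and 1.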

How the data were processed

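RNA of whole ganglia was labelled with Cy3 and hybridised to rat LncRNA Array v1.0 slides. The authors deposited 1 Agilent Feature Extraction file (version 11.0.1.1) per array, with linear intensities per spot. The processed signal used here was background-subtracted by the scanner software, and flags for outlier spots and for spots well above background are other values in the deposited files. The authors' own table of quantile-normalised intensities served as an alternative.

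Control spots (1417) were left out, outlier spots were set missing, and the processed signals of 42136 spots on 11 arrays were taken to log2, quantile normalised and averaged per probe. Accessions were matched without version to RefSeq (GRCr8), which named 14294 of 24684 probes, and the probe of highest mean signal stands for a gene. The groups were compared in limma 3.58.1 (R 4.3.3), unpaired (the methods name limma and mention no pairing), with Benjamini-Hochberg adjustment over all probes. The fit was tested on simulated data. The number of arrays limits the precision.

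Named were all members, the other glycolytic enzymes, from each other list the genes past the threshold (at most 4) or else the one with the smallest p, and the 5 genes most like Hk2. Values of some genes that this rule names are not reported here. The members and lists were chosen with earlier results of these data known. The labels number the samples of each side, and equal numbers were taken as the 2 ganglia of 1 animal. The pairing was read from these numbers. The deviations of the 2 sides correlated at -0.05, -0.08, -0.03, -0.01 and 0.13 in rats 1, 2, 3, 5 and 6. Alternatives on background used the median signal of a spot, since its mean signal was not in the files used here. The normexp alternative added an offset of 50. The others were the rat, slide or scan day in the model, scaling, rows of the array, dim and outlier spots, an intensity trend, array weights and each array left out.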

Additional observations from a re-analysis of the deposited data

Results flagged for a closer look

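Among the member probes and the 18 other glycolytic enzymes, 56 groups of arrays were examined for 1 array that lies far from the rest of its group, by the gap to its nearest neighbour over the range of the group. In 7 of them the gap was large by Dixon's criterion, where chance gives about 1 in 20. On CFA rat 8, 3 genes lay low: Eno2 at 12.76 against 13.59 to 13.82 on the other CFA arrays (gap over range 0.779), Gapdh at 15.47 against 15.91 to 16.05 (0.769) and Pkm at 13.88 against 14.52 to 14.80 (0.694). On contralateral rat 3, Pgam1 was high at 17.31 against 17.04 to 17.12 (0.726) and Pgam2 low at 5.77 against 6.55 to 6.80 (0.756). Pfkm was high on contralateral rat 2 at 16.56 against 16.42 to 16.46 (0.720), and Pklr was low on contralateral rat 5 at 4.01 against 5.47 to 5.79 (0.818).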

How the results depend on the processing

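With the rat as a replicate block, which uses the 5 paired rats, 370 probes passed the threshold, as did Hk2 (1.85) among the members, and 0 of the other pathway genes did. Probes past the threshold numbered 498 in the main fit, 233 with slide as a random block and 16 with normexp background (offset 50). Those past it numbered 47 without background correction, 301 with dim probes left out and 794 with array weights. They numbered 330 to 796 with 1 array left out: 330 without contralateral rat 1, 771 and 796 without contralateral rats 5 and 6. Of the 498 calls 57.2% were higher in CFA, against 68.8% with normexp background and 36.2% without slide 3. After adjustment 69 probes passed with slide as a block, 35 with scan day as a block, 22 with array weights and up to 121 with 1 array left out (without CFA rat 1); none of the members was among them.

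Members past the threshold fell from 1 to 0, that is Hk2 lost its call, with slide as a block (0.07), slide as a random block (1.38), scan day as a block (1.85), normexp background (0.37) and no background correction (0.63), and without slide 3 (0.54), a setting chosen after seeing the data. With 1 array left out the count was 0 to 1. The cause was not tested. The median of the 8 members stayed between -0.04 and 0.15 in all settings.

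Other pathway genes past the threshold numbered 0 with slide as a random block, scan day as a block, normexp background, no background correction, the authors' table, row blocks centred or dim probes left out, 2 with 75th percentile scaling (Ppargc1a and Pdk4, neither well above background on any array) or array weights, and 0 to 2 with 1 array left out. With slide as a block Pgk2 reversed to 0.21. That block rests on slide 2, with 1 CFA array against 2. Signal over background limits the value of Hk2, whose spot was not well above it on contralateral rats 1 and 2.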
